A study of Mus musculus with 24 samples.

Results

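The insulin genes Ins1 and Ins2 and the amylin gene Iapp were followed in the transcriptome of dispersed mouse islet cells. The 3 genes were taken by their symbols from a table of 41549 genes, and all 3 were among the 15916 genes with enough counts to be tested. The 24 libraries came from pancreatic islet cells of wild type mice transfected with an antisense oligonucleotide (ASO), either a control (Ctr) or one against 5'tRF Glu(CTC) (αGlu), a fragment from the 5' part of a glutamate tRNA. The cells then received palmitate (PA), a saturated fatty acid carried by albumin, or albumin alone (BSA). Each of the 4 combinations, named by ASO and treatment such as αGlu PA, was sequenced in 6 libraries, of which 3 belonged to each of 2 batches named in the sample records. Every group, controls included, was thus dispersed, transfected and cultured with albumin. The age and sex of the mice, and which libraries came from the same islet preparation, are not given in the labels. The study's methods state that for islet cells the groups of a replicate were taken from the same animal.

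Insulin and amylin are made, stored and released together by β-cells. Each is translated as a longer precursor that enters the endoplasmic reticulum, is folded around disulfide bonds and is then cut by prohormone convertases in the secretory granule. Mice carry a pair of insulin genes, of which Ins2 is the ancestral copy and Ins1 a retroposed one, whereas amylin comes from the single gene Iapp. Transcription of all of them relies on β-cell factors such as PDX1, and the insulin genes also on MAFA and NEUROD1.

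In the GENCODE M21 annotation of the GRCm38 build, Ins1 (ENSMUSG00000035804) lies on the plus strand at chr19:52264297-52265476 and has 1 transcript of 2 exons. Ins2 (ENSMUSG00000000215) lies on the minus strand at chr7:142678656-142743381, a span set by long isoforms among its 9 transcripts, while its principal transcript has 3 exons and 478 bases. Iapp (ENSMUSG00000041681) lies on the plus strand at chr6:142298423-142303961 and has 2 transcripts. The Iapp gene sits inside Slco1a5, a transporter gene on the other strand, which held 48 to 153 counts a library against 267984 to 911159 for Iapp.

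The start of both insulin coding sequences is shown because the separate values for Ins1 and Ins2 rest on the bases that tell them apart. Capitals mark bases that differ between the aligned sequences, including 6 bases of Ins2 that have no partner in Ins1. The letters were taken from the GENCODE M21 transcripts and run 5′ to 3′ from the start codon.
Ins1 coding bases 1 to 234: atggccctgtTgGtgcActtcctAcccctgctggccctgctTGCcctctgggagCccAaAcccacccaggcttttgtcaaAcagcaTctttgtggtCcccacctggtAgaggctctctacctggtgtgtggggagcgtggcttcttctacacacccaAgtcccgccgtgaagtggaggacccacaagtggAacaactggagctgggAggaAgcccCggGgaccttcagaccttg
Ins2 coding bases 1 to 240: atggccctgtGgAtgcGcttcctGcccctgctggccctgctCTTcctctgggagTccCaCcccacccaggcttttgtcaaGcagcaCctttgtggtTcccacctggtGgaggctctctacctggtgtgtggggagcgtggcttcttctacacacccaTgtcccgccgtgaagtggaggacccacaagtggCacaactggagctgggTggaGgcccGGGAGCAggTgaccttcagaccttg
Of the 324 aligned coding bases, 300 (92.6%) were identical. The longest identical stretch was 54 bases in the coding parts and 56 bases over the annotated transcripts. How reads that match both genes were assigned is not given in the sources used here, so the split between Ins1 and Ins2 is uncertain to that extent.

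The coding sequence of Iapp is shown beside them because its precursor is cut at pairs of basic residues, as proinsulin is. Capitals mark the codons of both Lys-Arg pairs, which start at residues 36 and 76 and enclose 38 residues.
Iapp coding bases 1 to 282: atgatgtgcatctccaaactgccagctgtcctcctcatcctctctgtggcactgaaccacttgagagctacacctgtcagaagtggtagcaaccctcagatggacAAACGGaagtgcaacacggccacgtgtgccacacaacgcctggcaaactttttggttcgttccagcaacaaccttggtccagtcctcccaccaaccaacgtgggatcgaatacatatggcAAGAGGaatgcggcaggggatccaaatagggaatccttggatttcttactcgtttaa
No stretch longer than 10 bases was shared between the principal Iapp transcript and any insulin transcript.

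The αGlu oligonucleotide is printed with the sequence it was designed against, because it separates the groups. Capitals mark the bases that pair.
αGlu ASO: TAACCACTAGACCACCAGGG
Target sequence: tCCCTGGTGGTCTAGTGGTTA

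A library held between 18214719 and 35001979 counts (median 26701201.5). The Ctr BSA library S1 of batch 1 stood apart. It had the lowest total, and the ribosomal RNA gene CT010467.1 took 15.9% of its counts, against 0.549% to 3.47% in the other 23 libraries. The fitted changes of the 3 genes over both batches that rest on S1 are given with and without it. The summed level of 12 β-cell markers, which leave out the 3 genes, ran from 4285 to 8907 CPM over the libraries, and that of 8 α-cell markers from 10283.6 to 26844 CPM. It ran from 79.4 to 368 CPM for 9 macrophage markers, from 5.87 to 74.9 CPM for 8 endothelial markers and from 224 to 23641 CPM for 10 acinar markers. Markers of acinar cells, which make digestive enzymes, differed most between batches.

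The 3 genes took 8.31% to 14.1% of all gene counts in a library. On the TPM scale, which corrects counts for gene length and library size, Ins2 had the highest mean level of the 3 with 122499 ± 20045 TPM (SD, n = 24), followed by Ins1 with 74559 ± 14648 TPM and Iapp with 61918 ± 17259 TPM. Ins2 exceeded Ins1 in 24 of 24 libraries, and their ranges overlapped between 89746 and 97050 TPM. Ins1 and Iapp, neighbours in this order, did not keep it. Iapp was below Ins1 in all 12 BSA libraries and above it in 8 of the 12 PA libraries. The lengths behind TPM were 1062 bases for Ins1, 1312 for Ins2 and 974 for Iapp, which are the lengths of all annotated exons. Per base of coding sequence instead, Iapp was above Ins1 in 0 of 12 BSA libraries and 9 of 12 PA libraries.

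PA against BSA in Ctr cells asks how the fatty acid alters hormone transcripts when the tRNA fragment is not targeted. The study reported, by qPCR, that PA itself raised this fragment in Ctr mouse islet cells. The insulin transcripts fell and the amylin transcript rose. Ins1 decreased by 26.5% (95% CI -35.4% to -16.5%), Ins2 decreased by 21.2% (95% CI -31.3% to -9.55%), and Iapp was 1.35-fold higher (95% CI 1.17 to 1.55). At an adjusted p below 0.05, 30% of all genes tested were called in this comparison, 15.5% as raised and 14.5% as lowered, so a call alone did not set the 3 genes apart.

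Levels of single genes per library are given as CPM, counts relative to the library size after TMM scaling, which corrects for library composition. The summed marker levels were not scaled in this way. Ins1 ranged from 24127 CPM (median 35633) to 37330 CPM in Ctr BSA and from 19479 CPM (median 23125) to 31230 CPM in Ctr PA. The groups overlapped over all libraries, but within each batch all 3 PA libraries were below all 3 BSA libraries. The log2 fold change of Ins1 was -0.44 ± 0.09 (SE, adjusted p = 0.00058), and it came to -0.52 in batch 1 and -0.37 in batch 2. Without S1, where Ins1 was highest in its group, the log2 fold change was -0.33 (adjusted p = 0.00039).

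Ins2 ranged from 48212 CPM (median 68992) to 76315 CPM in Ctr BSA and from 41700 CPM (median 49285) to 65714 CPM in Ctr PA. Here too the groups overlapped over both batches and separated within each. The log2 fold change of Ins2 was -0.34 ± 0.10 (SE, adjusted p = 0.0088), and its size depended on S1, without which it was -0.22 (adjusted p = 0.020). Within batches it was -0.41 and -0.29, with adjusted p = 0.11 and 0.087 in fits of 1 batch alone.

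Iapp ranged from 11068 CPM (median 20449) to 25293 CPM in Ctr BSA and from 17803 CPM (median 24707) to 32192 CPM in Ctr PA. Every PA library was above every BSA library of the same batch. The log2 fold change of Iapp was 0.43 ± 0.10 (SE, adjusted p = 0.0019). It came to 0.50 in batch 1, 0.36 in batch 2 and 0.52 without S1. The rise of Iapp was thus larger, and the fall of both insulin genes smaller, without S1.

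**Figure D1:**
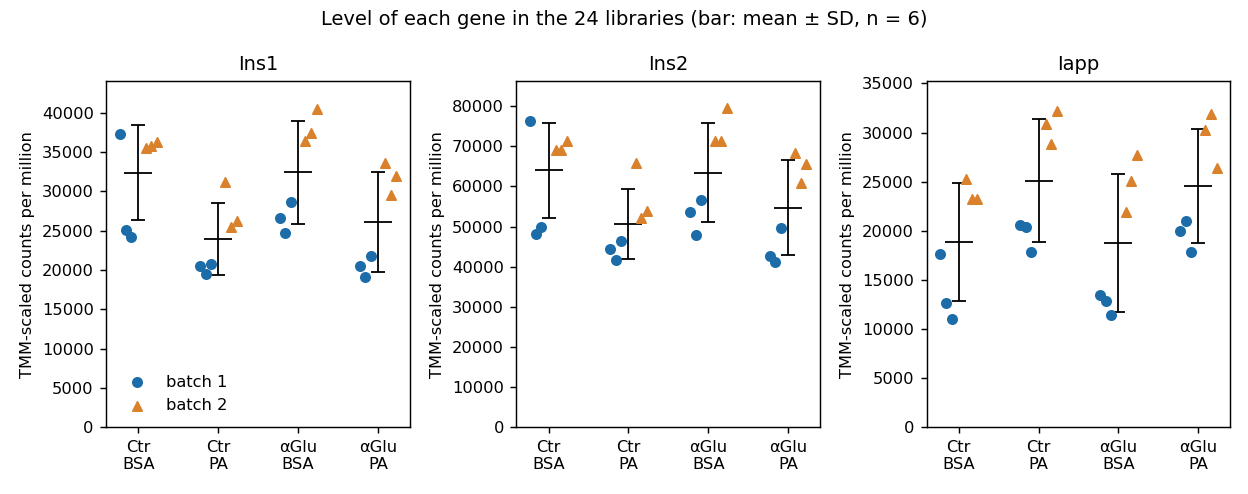
TMM-scaled CPM (y axes, from 0) of Ins1, Ins2 and Iapp in each library of the 4 groups (x axes), with circles for batch 1, triangles for batch 2 and bars for the mean ± SD of 6 libraries. In each group batch 2 lies above batch 1, except that S1 of batch 1 is the highest Ctr BSA library for Ins1 and Ins2. Within each batch, Ctr PA lies below Ctr BSA for Ins1 and Ins2 and above it for Iapp.

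PA against BSA in αGlu cells asks the same of cells in which the fragment was targeted. Ins1 fell again and Iapp rose again, whereas Ins2 did not pass the test. Over all genes 28.5% were called in this comparison, 14.4% as raised and 14.2% as lowered.

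Ins1 ranged from 24756 CPM (median 32522) to 40448 CPM in αGlu BSA and from 19153 CPM (median 25626) to 33619 CPM in αGlu PA. Within each batch the PA libraries lay below the BSA libraries. The log2 fold change of Ins1 was -0.32 ± 0.09 (SE, adjusted p = 0.0086). Fitted alone, batches 1 and 2 gave -0.39 and -0.26 with adjusted p = 0.11 and 0.091.

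Ins2 ranged from 48010 CPM (median 63940) to 79426 CPM in αGlu BSA and from 41227 CPM (median 55283) to 68318 CPM in αGlu PA. The groups overlapped, in batch 1 as well as over all libraries, and separated in batch 2. The log2 fold change of Ins2 was -0.22 ± 0.10 (SE, adjusted p = 0.097), with a 95% CI of -0.41 to -0.02. This call depended on the fit, since the adjusted p was 0.036 with DESeq2, 0.025 with the compared groups alone and 0.017 without S1.

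Iapp ranged from 11424 CPM (median 17703) to 27708 CPM in αGlu BSA and from 17806 CPM (median 23682) to 31888 CPM in αGlu PA. The groups separated in batch 1 and overlapped in batch 2. The log2 fold change of Iapp was 0.44 ± 0.10 (SE, adjusted p = 0.0017). It came to 0.63 in batch 1 and 0.25 in batch 2, where the adjusted p of that batch alone was 0.13. The difference of the PA response between batches, taken over both ASOs, was -0.27 ± 0.13 on the log2 scale for Iapp (adjusted p = 0.81) and -0.38 without S1 (adjusted p = 0.24), a comparison in which 0.0565% of all genes were called.

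αGlu against Ctr asks what targeting the fragment did to the hormone transcripts. Neither the insulin genes nor Iapp passed the test in BSA or in PA. In BSA the log2 fold changes were -0.01 for Ins1 (95% CI -0.20 to 0.17), -0.03 for Ins2 (-0.23 to 0.17) and -0.03 for Iapp (-0.24 to 0.17), each with an adjusted p of 1.0. Without S1 they were 0.10, 0.092 and 0.050 and did not pass. In PA they were 0.11 for Ins1 (-0.08 to 0.29), 0.10 for Ins2 (-0.10 to 0.30) and -0.03 for Iapp (-0.23 to 0.18), with adjusted p = 0.99. Changes within these intervals, whose outermost bounds were -15.1% and 22.9%, could not be told from none with these libraries.

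The αGlu comparisons also held no edgeR call over all genes (0% under either treatment). An unadjusted p below 0.05 was reached by 461 of 15916 genes in BSA and 538 in PA, while DESeq2 called 8 and 30. Of 8 glia markers, 7 had an unadjusted edgeR p below 0.05 in BSA and 7 in PA. Their median log2 fold changes were -2.545 in BSA and -3.163 in PA. The summed level of these markers was low, from 8.01 to 98.2 CPM over the libraries. The difference of the PA response between αGlu and Ctr, which called 0% of genes (332 at an unadjusted p below 0.05 and 0 with DESeq2), was 0.12 ± 0.13 for Ins1, 0.13 ± 0.14 for Ins2 and 0.01 ± 0.14 for Iapp (log2 ± SE, adjusted p = 0.999). The smaller insulin changes in αGlu cells were therefore not shown to differ from those in Ctr cells, and without S1 the differences were 0.0038 for Ins1, 0.0046 for Ins2 and -0.075 for Iapp. The difference of the αGlu effect between batches was 0.19 for Ins1 (95% CI -0.067 to 0.45), 0.20 for Ins2 (-0.085 to 0.48) and 0.066 for Iapp (-0.21 to 0.34) on the log2 scale and did not pass (adjusted p = 0.997). Without S1 these values were 0.077, 0.075 and -0.042. In that test 0% of genes were called (540 at an unadjusted p below 0.05 and 0 with DESeq2).

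**Figure D2:**
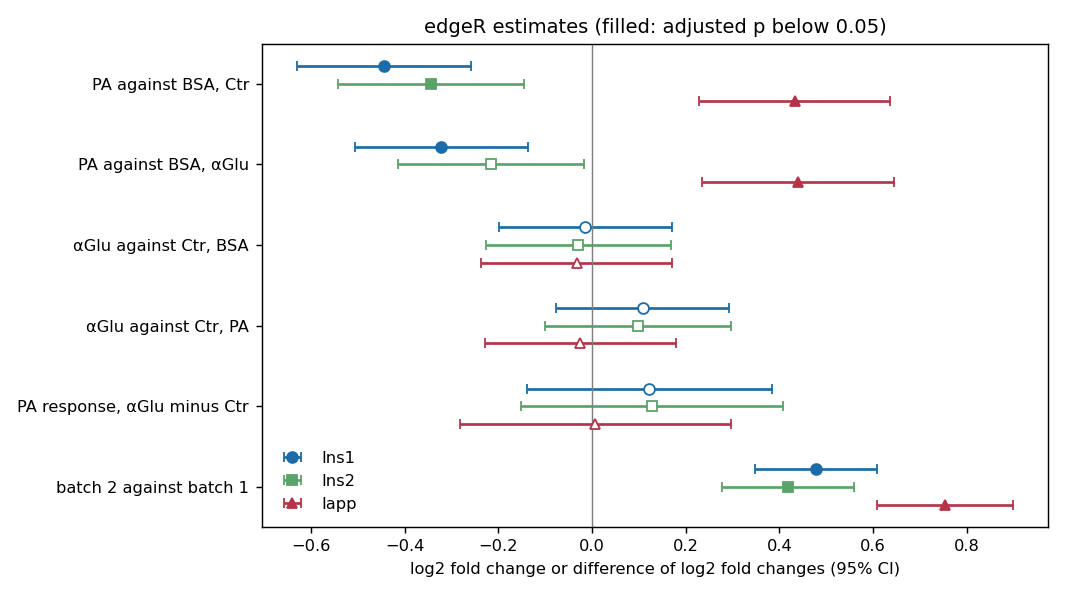
edgeR log2 fold changes, or differences of them, with 95% CI (x axis) for the 3 genes in 6 comparisons (y axis), with filled symbols at an adjusted p below 0.05. Both PA comparisons hold insulin symbols left of 0 and Iapp symbols at 0.43 and 0.44, and all αGlu intervals include 0.

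Ratios within a library do not depend on scaling between libraries. Iapp as a percent of the sum of Ins1 and Ins2, in TPM, ran from 18.7% (median 24.3%) to 30.2% in Ctr BSA and from 33.3% (median 40.9%) to 50.3% in Ctr PA. In αGlu BSA it ran from 16.7% (median 23.7%) to 28.8%, and in αGlu PA from 31.3% (median 38.4%) to 44.1%. Thus every PA library exceeded every BSA library of the same ASO, over both batches together. The ratio was 1.76-fold higher with PA in Ctr cells and 1.62-fold higher in αGlu cells. Both had p = 0.0022 in a two-sided exact permutation test, the smallest p that 6 against 6 libraries can give, and p = 0.0054 after adjustment over 15 tests.

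The Iapp ratio was 0.94 higher on the log2 scale with PA in batch 1 and 0.68 in batch 2 for Ctr cells, and 0.93 and 0.47 for αGlu cells. αGlu against Ctr differed by -0.02 in BSA and -0.13 in PA (exact permutation test, adjusted p = 0.92 and 0.46). In S1 the ratio was within the range of the other Ctr BSA libraries, and without it the log2 difference was 0.75 with PA in Ctr cells and -0.076 for αGlu against Ctr in BSA.

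The ratio of Ins2 to Ins1 in TPM was higher with PA in both ASOs. It ran from 1.56 (median 1.58) to 1.67 in Ctr BSA and from 1.66 (median 1.72) to 1.80 in Ctr PA. It ran from 1.54 (median 1.59) to 1.63 in αGlu BSA and from 1.65 (median 1.68) to 1.85 in αGlu PA. The groups just overlapped in Ctr cells and separated in αGlu cells, and in every batch the PA libraries were higher. The ratio was 1.07-fold higher with PA in Ctr cells (exact permutation p = 0.0087, adjusted p = 0.019) and 1.08-fold higher in αGlu cells (exact permutation p = 0.0022, adjusted p = 0.0054). On the log2 scale the difference in Ctr cells was 0.10, and 0.11 without S1 (exact permutation test, adjusted p = 0.023). The mean ratio over all libraries was 1.65 in TPM and 2.01 per coding base, so its height depends on the length used.

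The share of all gene counts held by the 3 genes together had a mean ± SD of 11.2% ± 2.04 with BSA and 9.98% ± 1.63 with PA for Ctr (n = 6 each). For αGlu it was 11.5% ± 2.16 with BSA and 10.6% ± 1.98 with PA. PA against BSA differed by -1.26 percentage points in Ctr and -0.93 in αGlu cells, which did not pass over all libraries (exact permutation test, adjusted p = 0.40 and 0.69). With libraries permuted only within their batch, both passed (adjusted p = 0.042 and 0.028). The value in Ctr cells was -1.27 without S1. The value in αGlu cells depended on single libraries. It was -1.45 without S6 and -0.59 and -0.41 without S18 and S22 of αGlu BSA, and -0.58 and -0.51 without S4 and S8 of αGlu PA.

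**Figure D3:**
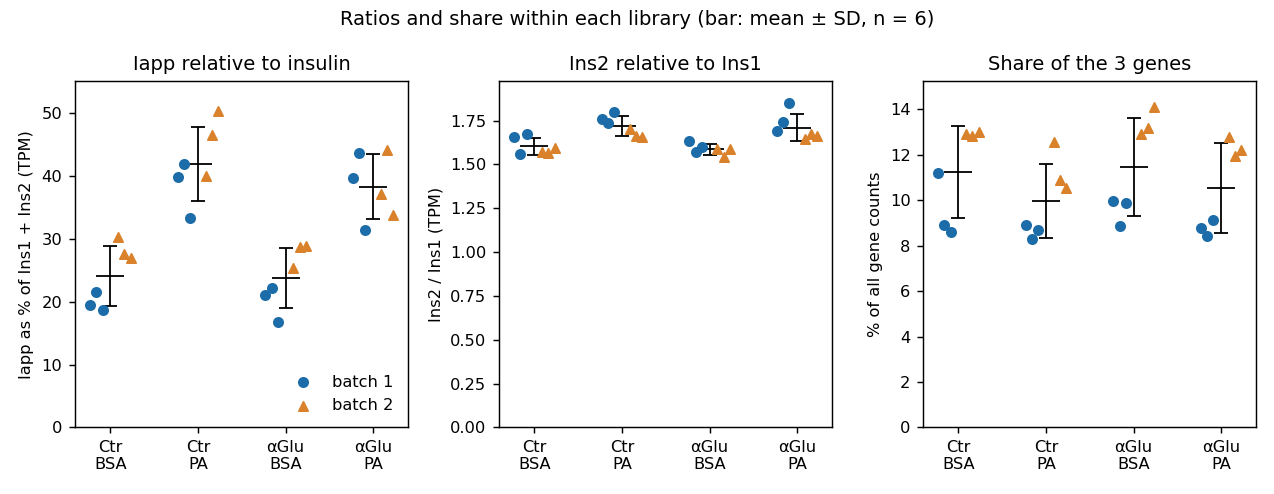
Iapp as a percent of Ins1 plus Ins2 in TPM, the ratio of Ins2 to Ins1 in TPM, and the percent of all gene counts in the 3 genes (y axes, from 0), for each library of the 4 groups (x axes), with circles for batch 1, triangles for batch 2 and bars for the mean ± SD of 6 libraries. The Iapp percent reaches at most 30.2% in the BSA libraries and at least 31.3% in the PA libraries.

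In CPM over both batches, each of the 3 genes differed more between batches than between PA and BSA. Ins1 ranged from 19153 CPM (median 22939) to 37330 CPM in batch 1 and from 25429 CPM (median 34556) to 40448 CPM in batch 2. Ins2 ranged from 41227 CPM (median 48111) to 76315 CPM in batch 1 and from 52242 CPM (median 68637) to 79426 CPM in batch 2. Iapp ranged from 11068 CPM (median 17739) to 20997 CPM in batch 1 and from 21911 CPM (median 27037) to 32192 CPM in batch 2, with no overlap over the 12 libraries of each. The log2 fold changes were 0.48 ± 0.06 for Ins1 (adjusted p = 8.2e-07), 0.42 ± 0.07 for Ins2 (adjusted p = 1.4e-05) and 0.75 ± 0.07 for Iapp (adjusted p = 3.1e-09). Without S1 they were 0.54, 0.48 and 0.80. The ratios differed less between batches than with PA. Batch 2 was higher by 0.31 in the log2 ratio of Iapp to insulin and differed by -0.058 in that of Ins2 to Ins1 (exact permutation within groups, adjusted p = 0.0054 and 0.0048). The share of counts in the 3 genes was 3.35 percentage points higher in batch 2 (exact permutation within groups, adjusted p = 0.00019). In this comparison 51.5% of all genes were called, 26.1% as raised and 25.4% as lowered.

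The batches also differed in cell type markers. In batch 2, 11 of the 12 β-cell markers were raised, and their summed level ran from 7684 to 8907 CPM against 4285 to 5952 CPM in batch 1. All 10 acinar markers were lowered, with a sum of 224 to 628 CPM against 3298 to 23641 CPM in batch 1. Their part in the batch difference of the hormone genes was not tested. In such bulk samples, fewer cells of a type and less RNA per cell cannot be told apart.

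With PA, 2 of the 12 β-cell markers were raised and 3 lowered (1 without S1) in Ctr cells. Over all genes 15.5% were raised and 14.5% lowered in that comparison. The median of the markers on the log2 scale was -0.07, beside 0.0074 over all genes. In αGlu cells 2 markers were raised and 2 lowered, where 14.4% and 14.2% of all genes were, and their median was -0.06. Their summed level overlapped between all groups, from 4285 to 8662 CPM in Ctr BSA and from 5011 to 8907 CPM in Ctr PA. Single markers went both ways. Ucn3, a peptide of mature β-cells, rose in Ctr cells by 0.58 (adjusted p = 5.2e-06) and in αGlu cells by 0.59 on the log2 scale. Mafa, also among the 12, was lowered in both, with values given below. Glucagon (Gcg), the α-cell hormone, had log2 fold changes of 0.05 and 0.01 (adjusted p = 0.84 and 0.98).

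Markers of other cells moved with PA. Over all genes 14.5% were lowered with PA in Ctr and 14.2% in αGlu cells. Of the fibroblast and stellate markers, 7 of 8 tested were lowered in Ctr and 5 of 8 in αGlu cells, with a summed level of 140 to 593 CPM in Ctr BSA and 12.8 to 69.1 CPM in Ctr PA, and of 91.2 to 1074 CPM in αGlu BSA and 13.7 to 182 CPM in αGlu PA. Of the macrophage markers, 7 of 9 were lowered in Ctr and 1 of 9 in αGlu cells, with sums of 79.4 to 368 CPM in Ctr BSA and 86.2 to 126 CPM in Ctr PA, and of 92.3 to 173 CPM in αGlu BSA and 82.01 to 134 CPM in αGlu PA. For the difference of the PA response between αGlu and Ctr, edgeR called 0 of these 9 macrophage markers. An unadjusted p below 0.05 was reached by 6 of the 9, beside 332 of the 15916 genes tested. The median difference of the markers was 2.23 on the log2 scale, beside -0.0054 over all genes. With no marker called, a difference of their PA response between the ASOs was neither shown nor excluded. Acinar markers were lowered for 7 of 10 in Ctr and 6 of 10 in αGlu cells. Their sums ran from 442 to 23641 CPM in Ctr BSA and from 224 to 8841 CPM in Ctr PA, and from 512 to 14924 CPM in αGlu BSA and 332 to 8035 CPM in αGlu PA. Their part in the PA response of the hormone genes was not tested.

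The genes that serve these hormones were followed from transcription to clearance in 7 lists with 80 tested genes, 6 of which are also β-cell markers. Of these genes 43 were called with PA in Ctr cells and 38 in αGlu cells (47 and 39 without S1), where 30% and 28.5% of all genes were called. By direction, 15.5% of all genes were raised and 14.5% lowered in Ctr cells, and 14.4% and 14.2% in αGlu cells. These shares stand beside the counts of each list below. None of the list genes was called for αGlu against Ctr in BSA or in PA, by edgeR or by DESeq2. Of the 23 transcription factors of the insulin genes, 6 were lowered and 2 raised with PA in Ctr cells, and 5 were lowered and 3 raised in αGlu cells, with median log2 fold changes of -0.10 in both. The 8 called of 23 in each were close to the share over all genes. Mafa, an activator of insulin transcription, fell by 0.41 in Ctr (adjusted p = 0.00078) and by 0.28 in αGlu cells (adjusted p = 0.015) on the log2 scale. Tcf3, the E-protein partner of NEUROD1, fell by 0.33 and 0.31, and Ldb1, a cofactor of ISL1, fell by 0.44 and 0.28. Cebpb, which can repress insulin transcription, rose by 0.47 and 0.44 from a low level, with means of 6.04 CPM in Ctr BSA and 8.37 CPM in Ctr PA. Means with PA were also higher for Nkx2-2 and Insm1 of this list. For Nkx2-2 they were 153.7 and 170.1 CPM in Ctr BSA and Ctr PA, and 152.8 and 180.3 CPM in αGlu BSA and αGlu PA. For Insm1 they were 170.1 and 192.1 CPM, and 166.2 and 190.9 CPM. Pdx1 and Neurod1 did not pass in either, with log2 fold changes of -0.04 and -0.001 in Ctr cells.

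Windows of 250 bases before the RefSeq start are shown for Ins1 and Iapp, which moved in opposite directions under PA. Of the 3 genes, 2 had an entry among the RefSeq promoters of build GRCm38.p6. Capitals mark the E-box letters CANNTG and the homeodomain core TAAT on either strand. E boxes are read by NEUROD1 with its E-protein partner, and TAAT by homeodomain factors such as PDX1.
Ins1, chr19:52264047-52264296, plus strand: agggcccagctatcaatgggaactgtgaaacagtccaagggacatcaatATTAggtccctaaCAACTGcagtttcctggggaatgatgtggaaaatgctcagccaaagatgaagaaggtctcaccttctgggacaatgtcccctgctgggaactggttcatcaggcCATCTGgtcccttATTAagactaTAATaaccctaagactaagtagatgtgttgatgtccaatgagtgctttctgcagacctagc
Iapp, chr6:142298175-142298424, plus strand: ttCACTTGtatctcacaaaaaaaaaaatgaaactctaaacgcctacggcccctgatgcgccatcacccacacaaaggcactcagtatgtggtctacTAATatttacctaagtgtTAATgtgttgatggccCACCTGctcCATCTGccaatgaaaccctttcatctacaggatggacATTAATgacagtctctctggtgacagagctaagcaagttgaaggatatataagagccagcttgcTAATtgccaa
The Ins1 window held 2 E boxes and 3 TAAT matches, and the Iapp window 3 and 5. Of all 32851 promoter windows of this length, 66.2% held an E box and 54.9% held TAAT on either strand. The longer letters GCCATCTG, which overlap an E box, occurred once in the Ins1 window, not in the Iapp window, and in 1.11% of all windows. The letters TGACGTCA and TATAAA were in neither window and in 1.55% and 12.4% of all windows. Both windows end at an annotated start, and bases beyond it were not searched. Only exact letters were counted. The counts therefore describe these windows, and do not show that a promoter lacks an element such as a TATA box.

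Most genes for entry into the endoplasmic reticulum were raised. Of 14 genes for translocation and signal peptide cleavage, 11 were raised and 0 lowered with PA in Ctr cells and 10 raised and 0 lowered in αGlu cells, with median log2 fold changes of 0.25 and 0.22. Spcs2, a subunit of the signal peptidase, rose by 0.39 in Ctr cells (adjusted p = 2.7e-06) and by 0.32 in αGlu cells (adjusted p = 3.5e-05). Sec11c, its catalytic subunit, rose by 0.40 and 0.36, and Sec61g, of the translocation channel, rose by 0.35 and 0.33 on the log2 scale.

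Of 12 genes for folding and disulfide formation, 9 were raised in Ctr cells and 7 in αGlu cells, and none was called lowered in either, with medians of 0.20 and 0.18. Hspa5, the chaperone BiP, rose by 0.45 in Ctr cells (adjusted p = 1.6e-05) and by 0.39 in αGlu cells (adjusted p = 9.1e-05). Ero1a, an oxidase of the disulfide isomerases, rose by 0.48 and 0.26. Its relative Ero1b, abundant in β-cells, did not pass and had log2 fold changes of 0.10 and 0.01.

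The 7 genes of prohormone processing moved both ways, with 1 raised (2 without S1) and 2 lowered in each PA comparison. Pam, which amidates peptides such as amylin, rose by 0.35 in Ctr (adjusted p = 0.00015) and by 0.27 in αGlu cells (adjusted p = 0.0020). Furin, a convertase of the Golgi, fell by 0.47 and 0.34. The convertase Pcsk1 had a log2 fold change of -0.08 in Ctr cells (adjusted p = 0.33) and fell by 0.21 in αGlu cells (adjusted p = 0.013). Pcsk2, which also cuts proinsulin and proamylin, and the carboxypeptidase gene Cpe passed in neither.

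Among 9 genes of the secretory granule, 4 were raised and 0 lowered in each PA comparison, with median log2 fold changes of 0.21 and 0.19. Vgf, a granin-like protein, rose by 0.72 in Ctr (adjusted p = 0.0017) and by 0.90 in αGlu cells (adjusted p = 0.00021), and Scg2 rose by 0.25 and 0.19. Slc30a8, the zinc transporter of insulin granules, did not pass and had values of 0.10 and 0.02.

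Of 10 tested genes for receptors and clearance, 4 were lowered in each PA comparison and 1 was raised in Ctr cells. Mme, the protease neprilysin that degrades amylin, fell by 3.37 in Ctr (adjusted p = 2.7e-06) and by 3.09 in αGlu cells (adjusted p = 8.2e-06) on the log2 scale, beside the fall in fibroblast and stellate markers given above. Its level was near the floor, with means of 1.785 CPM in Ctr BSA and 0.1853 CPM in Ctr PA. The means were 1.504 CPM in αGlu BSA and 0.1767 CPM in αGlu PA. Ramp1, a partner of the calcitonin receptor in amylin receptors, fell by 0.56 and 0.56. Its level was low, with means of 6.04 CPM in Ctr BSA and 4.12 CPM in Ctr PA. The calcitonin receptor gene Calcr had too few counts to be tested. Ide, the insulin-degrading enzyme, rose by 0.23 in Ctr cells (adjusted p = 0.028) and had a value of 0.14 in αGlu cells (adjusted p = 0.18).

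Of 5 genes for other islet hormones, 3 were lowered with PA in Ctr and 2 in αGlu cells, and none was raised. Sst, the δ-cell hormone somatostatin, fell by 0.69 in Ctr (adjusted p = 0.0021) and by 0.56 in αGlu cells (adjusted p = 0.010). Ghrl (ghrelin) fell by 1.89 and 2.20. Pancreatic polypeptide (Ppy) fell by 0.50 in Ctr cells (adjusted p = 0.0041) and had a value of -0.24 in αGlu cells (adjusted p = 0.17).

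**Figure D4:**
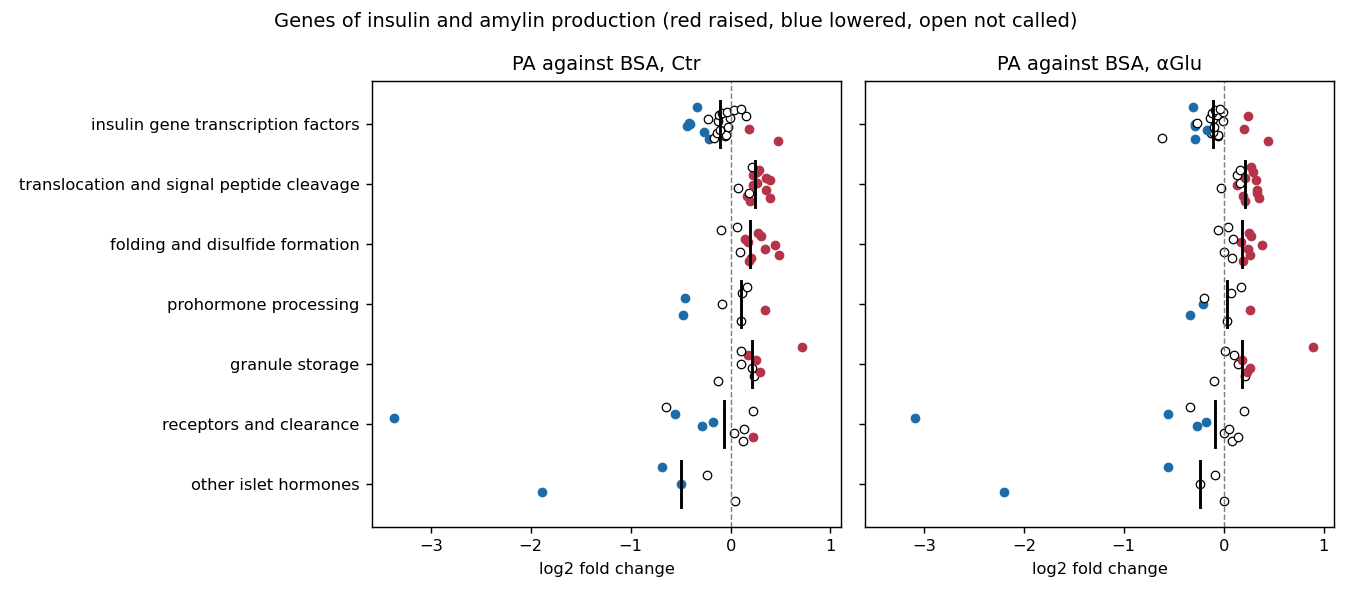
log2 fold change with PA (x axes) of the tested genes of 7 lists (y axis) in Ctr and αGlu cells, with red points raised, blue points lowered, open points not called, solid bars for the list median and a dashed line for the median of all genes. The lists for translocation, folding and granule storage hold no gene called lowered in either. Mme, whose mean in a group was at most 1.785 CPM, is the lowest point at -3.37 and -3.09.

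The genes most like each hormone gene were ranked by Pearson's r of log2 CPM over the 24 libraries, after subtracting the mean of each batch, among genes with a mean of at least 50 counts. These libraries share 2 batches and 4 groups, so r is a description. Ins2 was the gene most like Ins1 and Ins1 the gene most like Ins2 (r = 0.97), and they share part of their sequence as shown. Ins1 was next followed by Fam20c (r = 0.92), Tmem215 (0.91), Zc3h3 (0.90) and Tulp3 (0.90). After Ins1, Ins2 was most like Tmem215 (0.90), Prss53 (0.89), Mast1 (0.88) and Tulp3 (0.88). The order depended on the centring. Without it r was 0.13 for Mast1 with Ins2, and 0.72 and 0.71 for Tulp3 with Ins1 and Ins2.

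Iapp stood apart from the insulin genes in this measure. The genes most like it were Ucp2, an uncoupling protein of mitochondria (r = 0.97), Atp6ap1, an accessory subunit of the vacuolar proton pump (0.95), Gorasp2 (0.95), Tm4sf4 (0.93) and Rnf130 (0.93). Without batch centring r was 0.79 for Ucp2, the lowest of these genes, and 0.97 for Gorasp2, the highest. All 5 were raised with PA in both ASOs, as Iapp was. They were picked for likeness to Iapp over these same libraries, so this is not a separate result. The r of Iapp was -0.55 with Ins1 and -0.42 with Ins2 after batch centring, and 0.36 and 0.42 without it. The sign of that relation was therefore set by whether the batch difference, in which all 3 genes were higher in batch 2, was kept.

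Within a group and batch, the spread of log2 CPM was similar for the 3 genes, with an SD of 0.15 for Ins1, 0.17 for Ins2 and 0.17 for Iapp (16 degrees of freedom). Over all 24 libraries the SD was 0.34, 0.30 and 0.48.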

How the data were processed

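Total RNA of dispersed mouse islet cells was made into stranded mRNA libraries. Per the study's methods, the authors annotated and normalized reads in the QIAGEN RNA-seq Analysis Portal, and the submitters' processing notes name GRCm38. The deposited table gives per gene and library the count of reads on exons, TPM, RPKM (not used) and CPM. The deposited CPM, treated as a scaled signal, served only to read the authors' scaling factors (0.84 to 1.04). Empty cells were read as 0 counts. Use of strand in counting is not given in the sources used here.

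Counts of 15916 genes (filterByExpr, minimum 10) were fitted in R 4.3.3 with edgeR 4.0.16 (TMM, quasi-likelihood, group and batch terms, Benjamini-Hochberg adjustment over all genes, threshold 0.05). Group by batch terms gave differences between batches. The fit was tested on simulated data. Ratios and shares were compared by two-sided exact permutation, adjusted over 15 tests. Alternatives were DESeq2 1.42.0, other scalings and filters, no batch term, the compared groups or each batch alone, and each library left out. Omission of 356 rRNA genes, the use of coding length and list counts without S1 were chosen after seeing the data. The 3 genes, all lists and the naming rule (list genes called or best known, and the 5 genes most alike) were chosen with earlier results of these data known. Comparisons with a common group share its libraries. Labels do not state whether libraries came from separate animals, so p-values measure only the spread between these libraries.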

Additional observations from a re-analysis of the deposited data

How the results depend on the processing

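With PA, Ins1, Ins2 and Iapp kept their directions in both ASOs under every alternative run, and no omission of 1 library ended a call. Without a batch term the log2 fold changes in Ctr cells were -0.43 for Ins1, -0.34 for Ins2 and 0.41 for Iapp, and in αGlu cells -0.31 for Ins1 and 0.39 for Iapp, and none of these passed (adjusted p from 0.089 to 0.31). Calls over all genes with PA went from 4772 to 2312 in Ctr and from 4543 to 2271 in αGlu cells without it. Batch 1 alone gave 2033 and 1644, and batch 2 alone 1833 and 1902. In fits of 1 batch, Ins2 in Ctr cells (-0.41 and -0.29), Ins1 in αGlu cells (-0.39 and -0.26) and, in batch 2, Iapp in αGlu cells (0.25) no longer passed. Ins2 in αGlu cells passed with DESeq2 (-0.23) and the compared groups alone (-0.22), and ran from -0.25 to -0.18 over the omissions, passing without Ctr BSA library S1.

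Values for αGlu against Ctr never passed, and their signs were not stable. In BSA, Ins1 was 0.0021 without a batch term and 0.085 in batch 2 alone, Ins2 0.082 and Iapp 0.053 in batch 2 alone. In PA, Iapp was 0.0014 in batch 1 alone. The omissions of 1 library gave -0.048 to 0.10 for Ins1, -0.066 to 0.092 for Ins2 and -0.094 to 0.050 for Iapp in BSA, and -0.066 to 0.021 for Iapp in PA. The difference of the PA response between ASOs for Iapp was -0.024 without a batch term, -0.11 in batch 2 alone and -0.075 to 0.068 over the omissions. Between batches, the PA response of Ins2 differed by -0.039 to 0.14 and the αGlu effect on Iapp by -0.042 to 0.13 over the omissions. For αGlu against Ctr, the log2 ratio of Ins2 to Ins1 in PA ran from -0.031 to 0.0052 and that of Iapp to insulin in BSA from -0.087 to 0.077. The share of counts in BSA ran from -0.29 to 0.76 percentage points and was -0.11 without rRNA genes in the denominator.

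The share with PA, -1.26 and -0.93 percentage points, passed when permuted within batches, and ran from -1.79 to -0.91 in Ctr and from -1.45 to -0.41 in αGlu cells over the omissions. When genes had to change by over 2-fold at an unadjusted p below 0.05, 2 of the 43 list genes called in Ctr cells, 2 of the 38 in αGlu cells and 2 of the 64 between batches were left. Calls over all genes rose with DESeq2 from 9 to 42 for the PA response between batches. The cause of these changes was not tested. No paired analysis was possible because the labels give each library a number of its own and do not say which libraries share an animal.

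The comparisons rest on 6 libraries a group over 2 batches. Iapp held at least 267984 counts in each library. S1 decided the size of the Ins2 response in Ctr cells, which was -0.34 with and -0.22 without it.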
